A study of Saccharomyces cerevisiae with 16 samples.

Results

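Native RPS3 (YNL178W) is the chromosomal gene for the small-subunit ribosomal protein Rps3 of budding yeast, and the promoter and terminator of the reporter studied here were taken from it. It was chosen by its identifier, as 1 of the 5698 rows of the deposited gene count table, together with the 200 positions listed for RPS3 among the 1000 positions in the deposited tables of 3′ ends. The rule that names it used no measured value, though earlier results of these data were known when it was chosen. On the genome build R64 the gene lies on chromosome XIV from 302680 to 303402 on the plus strand, a coding region of 723 bp with 240 codons. The annotated transcript used for counting runs from 302662 to 304664.

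Rps3, also called uS3, sits on the solvent side of the small ribosomal subunit where mRNA enters, and it takes part in the unwinding of incoming mRNA and in start codon selection. The yeast gene is present in a single copy and is essential. Ribosomal protein mRNAs are among the most abundant of growing yeast cells, and their 3′ ends are made by a cleavage and polyadenylation complex that reads A- and U-rich elements of the terminator. Cleavage in yeast commonly occurs at several neighbouring nucleotides and not at a single one, so a gene has a profile of poly(A) sites.

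The study asked how short motifs placed in a terminator change the transcripts of a reporter. RNA carrying a 5′ monophosphate, which includes decay intermediates and RNA degraded behind the last ribosome, was sequenced by HT-5PSeq with priming from oligo(dT) alone. A read level is therefore the abundance of polyadenylated, 5′-phosphorylated RNA and not of all mRNA of the gene. All 8 groups were strain BY4741, of mating type a, grown for 4 h at 30 °C in synthetic medium without uracil to an OD600 of 0.7, and all kept the chromosomal RPS3 gene. The no reporter group carried a POT1-ccdB plasmid. The WT group carried, on a low-copy plasmid, mCherry between the RPS3 promoter and the unmodified RPS3 terminator. The 6 modified groups had the same reporter with 3 insertion sites of 9 bp in its terminator and were named by their inserts (modNNN, modNTN, modNAA, modNGG, modHNH, modHTH). N was a random sequence. The other inserts, except G, whose sequence was not given in the sources used here, are shown because they separate the groups:
A: ATATTC
H: TTTCATTTC
T: TGTACAATA
These inserts lay on the plasmid, so the terminator of the chromosomal gene was the same in every group.

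Each group had 2 libraries. The second library was left out, for holding under 1000 reads, in modNGG (477 reads), in modHNH (267) and in modHTH (69). The 13 libraries used held 1070844 to 2939907 reads, so modNGG, modHNH and modHTH rest on 1 library each and have no replicate error of their own. Nothing in the labels ties the 2 libraries of a group to separate cultures, so the p-values here cover the spread between libraries, which may be technical. Within the 5 groups with 2 libraries, the pairs differed beyond sampling noise (chi-square per degree of freedom 2.86 to 9.45). Chromosomal URA3 and MET17 had 0 reads, LEU2 at most 2 and HIS3 198 to 582. Of the markers of mating type a, STE2 had 728 to 2082 reads and BAR1, the lowest, 137 to 348. Of the alpha markers, MF(ALPHA)1 had at most 7 and MF(ALPHA)2 at most 5, while STE3 had 6 to 20 and SAG1 35 to 95. The plasmid URA3 row was also 0 in both no reporter libraries, though these were grown without uracil too. The cause of this 0 was not tested, and it does not show that the gene was absent.

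The read level of native RPS3 was nearly even across the groups. It took 0.310% to 0.403% of the reads of a library, or 3241 to 4025 counts per 1000000 (CPM, scaled with TMM factors), with a median of 3619 over the 13 libraries. RPS3 had 9353 and 4049 reads in the no reporter libraries, at 3353 and 3860 CPM. In WT it had 7943 and 7336 reads, at 4025 and 3676 CPM. The 2 groups overlapped, since the second no reporter library lay between the WT libraries.

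Among the modified groups, modNNN gave 4023 and 3619 CPM from 5807 and 5387 reads. The modNTN libraries gave 3658 and 3452.5 CPM from 6278 and 5934 reads. The modNAA libraries gave 3297 and 3514 CPM from 5888 and 7151 reads. The single libraries of modNGG, modHNH and modHTH gave 3706, 3296 and 3241 CPM from 7485, 4232 and 3655 reads. The libraries of modHNH and modHTH were the lowest of all, by less than the gap between the 2 libraries of any group with 2.

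**Figure D1:**
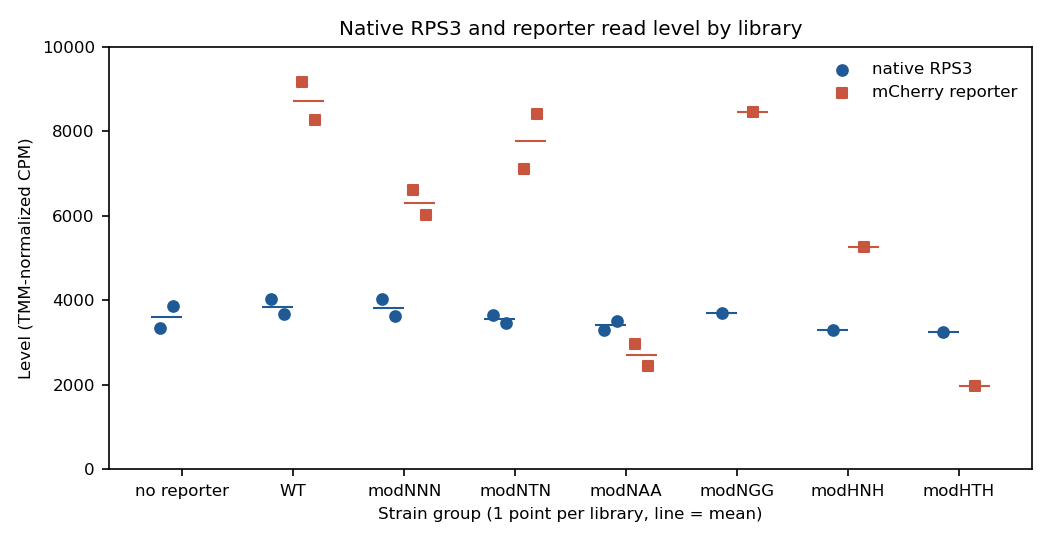
Read level of native RPS3 (circles) and of the mCherry reporter (squares) in each library, in TMM-normalized CPM, by strain group; a line marks the mean. Native RPS3 stayed between 3241 and 4025 CPM in all 13 libraries. The reporter ran from 1965 CPM in modHTH to 9176 CPM in the first WT library, with a WT mean of 8718 CPM.

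By group mean the order was WT (3850 ± 247 CPM, SD, n = 2), modNNN (3821 ± 285, n = 2), modNGG (3706, n = 1), no reporter (3607 ± 358, n = 2), modNTN (3555 ± 145, n = 2), modNAA (3406 ± 153, n = 2), modHNH (3296, n = 1) and modHTH (3241, n = 1). Neighbours in this order did not differ beyond their spread. The reporter gave 2.26 ± 0.02 reads for each read of native RPS3 in WT (SD, n = 2), 1.65 ± 0.01 in modNNN and 0.796 ± 0.144 in modNAA, and 0.606 in the modHTH library. Over the 11 reporter libraries the ratio ran from 0.606 in modHTH to 2.44 in the second modNTN library, beside native levels of 3241 to 4025 CPM.

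No contrast on the native gene passed the test. Each was taken from a single edgeR quasi-likelihood fit over 5268 genes, with p-values adjusted over all of them by the Benjamini-Hochberg method at a threshold of 0.05. For the 7 reporter groups against no reporter the log2 fold change was -0.02 (SE 0.12, 95% interval -0.27 to 0.22, edgeR adjusted p = 0.938), against 0.38% of all genes called. The mean over the 11 reporter libraries was 3592 CPM, against 3607 CPM without a reporter. For WT against no reporter it was 0.09 (SE 0.15, interval -0.23 to 0.41, edgeR adjusted p = 0.89), with 0.038% of genes called. These intervals bound the difference at 0.828 to 1.17 times and 0.855 to 1.33 times the level without a reporter.

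No contrast between terminators passed on RPS3 either. The log2 fold change of RPS3 was -0.01 (SE 0.15, edgeR adjusted p = 0.994) for modNNN against WT, where 0.019% of genes were called. Against modNNN it was -0.10 in modNTN (SE 0.15, edgeR adjusted p = 0.999) and -0.17 in modNAA (SE 0.15, edgeR adjusted p = 0.862). The single libraries of modNGG and modHNH gave -0.04 (SE 0.19, edgeR adjusted p = 0.941) and -0.21 (SE 0.19, edgeR adjusted p = 0.582). For these 4 contrasts the percentage of genes called was 0, with 101, 327, 761 and 833 genes at an unadjusted p under 0.05 in edgeR and 0, 0, 1 and 0 called by DESeq2. The largest difference was -0.24 in the modHTH library (SE 0.19, interval -0.63 to 0.16, edgeR adjusted p = 0.503), where 0.0569% of genes were called. A single library is assumed in this fit to vary like the others. All 5 contrasts with modNNN share its 2 libraries and are not independent, and in a bulk culture less RNA per cell and fewer cells with the RNA cannot be told apart.

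**Figure D2:**
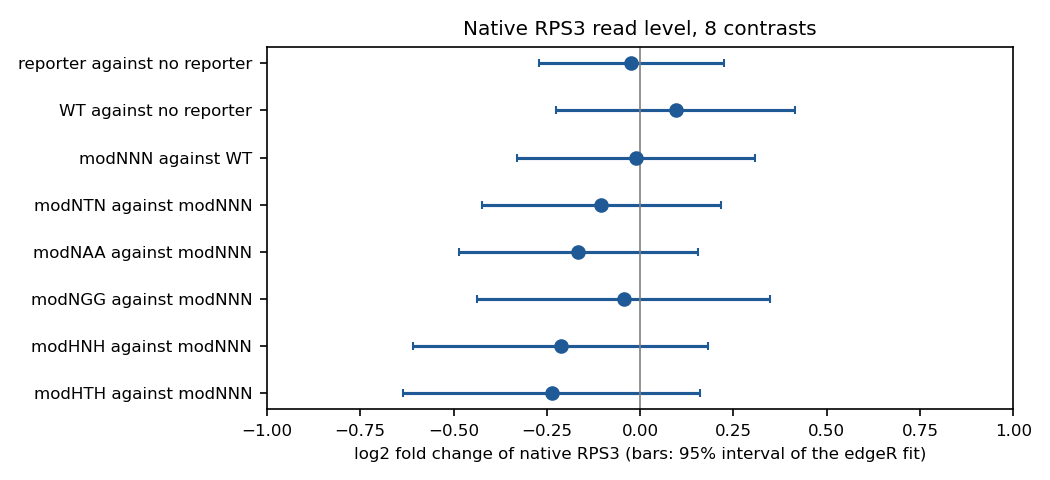
Log2 fold change of native RPS3 in 8 contrasts (points) with the 95% interval of the edgeR fit (bars); the horizontal axis is the log2 fold change. Every interval includes 0, and the lowest point is -0.24 for modHTH against modNNN.

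The row counted for RPS3 covers more than RPS3. The annotated transcript extends 1262 nt past the gene's end and runs across MRPL22 (YNL177C), a gene for a mitochondrial ribosomal protein on the opposite strand from 303686 to 304615. The 2 annotated transcripts share 1301 nt, and the genes themselves lie 283 nt apart. Whether counting used the strand was not given in the sources used here. If the strand was not used, reads from MRPL22 in the shared stretch cannot be told apart from reads of RPS3. RPS3 had 17.2 to 23.3 reads for each read of MRPL22 (median 20.1), and this ratio was 19.0 to 21.4 in the 3 groups with 1 library.

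Per kilobase of gene, RPS3 stood at 4971 ± 368 CPM (SD, n = 13) and ranked 24 of 5210 genes. Of the other single-copy genes of the small subunit, RPS31, which encodes a ubiquitin fusion, stood at 12711 CPM per kilobase and RPS12 at 7150. RPS15 stood at 4560 ± 779 CPM per kilobase, within its own spread of RPS3. RPS2 stood at 2676, RPS13 at 1105 over a span that includes its intron, and RPS20 at 814 CPM per kilobase.

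RPS3 also varied little. The SD of its log2 level over the 13 libraries was 0.11, against a median of 0.24 over 4979 genes with a mean of at least 10 CPM, and 1.77% of genes had a smaller one. Genes with many reads vary less by counting alone, and among the 164 genes with a mean of at least 1000 CPM, whose median SD was 0.20, RPS3 had the 10th smallest.

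None of the RPS3 partner or ribosomal protein genes passed the test either. The 55 other genes of the small subunit had 0 called in each of the 8 contrasts, and so had its 7 single-copy members and the 12 partner genes, by edgeR with the percentages of all genes given above. At an unadjusted edgeR p under 0.05 they had 9, 1 and 3 members for reporter against no reporter, beside 958 of all 5268 genes. The counts were 3, 0 and 2 beside 471 for WT against no reporter, and 1, 0 and 1 beside 285 for modNNN against WT. Against modNNN they were 0, 0 and 0 beside 101 in modNTN, and 2, 0 and 0 beside 327 in modNAA. In the single libraries they were 10, 2 and 5 beside 761 (modNGG) and 13, 2 and 3 beside 833 (modHNH). For modHTH they were 10, 3 and 3 beside 1029. DESeq2 called 0 to 57 of all genes in a contrast. Over all contrasts it called 1 gene in these lists, in modHTH against modNNN, where it called 48 of all genes. That gene was TSR1, an assembly factor that blocks premature joining of the subunits, at 229 CPM in the modHTH library against 85.9 and 134 CPM in modNNN (edgeR log2 fold change 1.05, SE 0.25, adjusted p = 0.103, and 0.0403 by DESeq2).

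For the reporter groups against no reporter, 39 of the 55 small-subunit genes lay below 0, with a median log2 fold change of -0.13 beside 0.02 over all genes. For WT alone against no reporter it was 29 of 55, with a median of -0.01. Many of them are members of near-identical pairs, between which reads may have been split by the counting. The single-copy members had a median of -0.04, from -0.30 in RPS2 to 0.54 in RPS20. RPS2 stood at 1997 CPM with a reporter and 2325 CPM without (edgeR adjusted p = 0.305). RPS20, which lies beside Rps3 in the ribosome and is also on the partner list, stood at 312 and 223 CPM (edgeR adjusted p = 0.185).

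The partner list holds proteins that bring Rps3 into the subunit or act on it there. YAR1, the dedicated chaperone of Rps3, stood at 203 CPM with a reporter and 184 CPM without (log2 fold change 0.10, SE 0.12, edgeR adjusted p = 0.685). LTV1, which holds Rps3 in its immature position, stood at 164 and 136 CPM (0.28, SE 0.13, edgeR adjusted p = 0.243). ENP1, its neighbour on the precursor, stood at 121 and 115 CPM (-0.01, SE 0.16, edgeR adjusted p = 0.987). HRR25, the casein kinase that phosphorylates both, stood at 82.8 and 69.6 CPM (0.27, SE 0.17, edgeR adjusted p = 0.391).

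Later factors gave values of the same size. NOB1, the nuclease of the last rRNA cleavage, gave 0.28, the kinase RIO2 0.35 and the methylase DIM1 0.18 on the log2 scale. ASC1, the RACK1 protein that contacts Rps3, gave 0.16 (SE 0.13), and the ubiquitin ligases HEL2 and MAG2, which modify small-subunit proteins including Rps3, gave 0.33 and 0.14. Of the 12 partner genes 11 lay above 0, with a median of 0.25 beside 0.02 over all genes, and none passed the test. For WT alone against no reporter, 7 of the 12 lay above 0, with a median of 0.16, and TSR1 stood at -0.43 (SE 0.21) and HRR25 at -0.23 (SE 0.22). TSR1 was at 0.77 to 1.05 against modNNN in the single libraries of modNGG, modHNH and modHTH, which enter the mean of the reporter groups. Both contrasts share the same 2 libraries without a reporter.

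The 5 genes whose level was most like that of RPS3 over the 13 libraries were YVH1 (Pearson r = 0.93), FAR7 (0.87), RPC34 (0.86), GRX7 (0.85) and TRS20 (0.85), of 4979 genes compared. YVH1 encodes a phosphatase of large-subunit assembly, and the others act in pheromone arrest, RNA polymerase III, glutathione chemistry and vesicle tethering. Their mean levels were 21.0 to 132 CPM. Over the 10 libraries of groups with 2, YVH1 gave 0.91. The 55 small-subunit genes had a median r of 0.32 with RPS3 (-0.70 to 0.73), beside 0.01 over all genes. All these values share the same libraries and scaling, and the highest of many correlations are high by choice.

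The 3′ ends of native RPS3 formed a narrow cluster with a single leading site. Each library listed 2376 to 7674 ends over the 200 positions, given as nt from the stop codon; the table does not say which base is position 1. Positions 48 to 63 held 92.6% to 95.2% of the ends (median 94.3%). Positions 1 to 47 held 1.01% to 2.48% and positions 64 to 200 held 3.57% to 4.92%. The mean position was 57.9 to 59.5 nt in the 13 libraries.

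Position 59 was the most used site in every library, with a mean share of 27.96% ± 6.75 (SD, n = 13). It held 31.2% and 33.0% of the ends in the no reporter libraries and 36.5% and 32.5% in WT. In modNNN it held 39.9% and 24.4%, the highest and the lowest share of any group with 2 libraries. It held 29.0% and 26.6% in modNTN and 25.7% and 28.03% in modNAA. In the single libraries of modNGG, modHNH and modHTH it held 20.7%, 19.5% and 16.5%, below all of the others.

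The counts behind these shares were large. The highest share rested on 2088 of 5237 ends (95% Wilson interval 38.6% to 41.2%) and the lowest on 392 of 2376 ends (15.1% to 18.0%). These intervals cover counting error only, and the 2 modNNN libraries differed by far more than theirs.

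The next sites were much smaller. Position 49 held 7.88% ± 1.06 of the ends (SD, n = 13) and position 61 held 7.74% ± 1.69. Position 58 held 7.58%, position 63 held 7.15% and position 57 held 5.68% on average. Positions 48, 54, 53 and 56 followed with 5.61%, 5.41%, 5.06% and 4.92%. Together these 10 positions held 79.1% to 87.7% of the ends. Position 62, the next in the cluster, held 2.69% to 4.44% in the groups with 2 libraries and 5.24%, 6.12% and 7.03% in modNGG, modHNH and modHTH. Positions 47, 52 and 55 held at most 1.14% in every library.

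Beyond the cluster the ends were few. Position 65 held 0.61% to 1.31% of the ends, position 129 held 0.346% to 0.754%, and position 82 held 0.117% to 0.404%. Ends more than 100 nt from the stop codon made up 1.41% to 2.55% of a library.

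**Figure D3:**
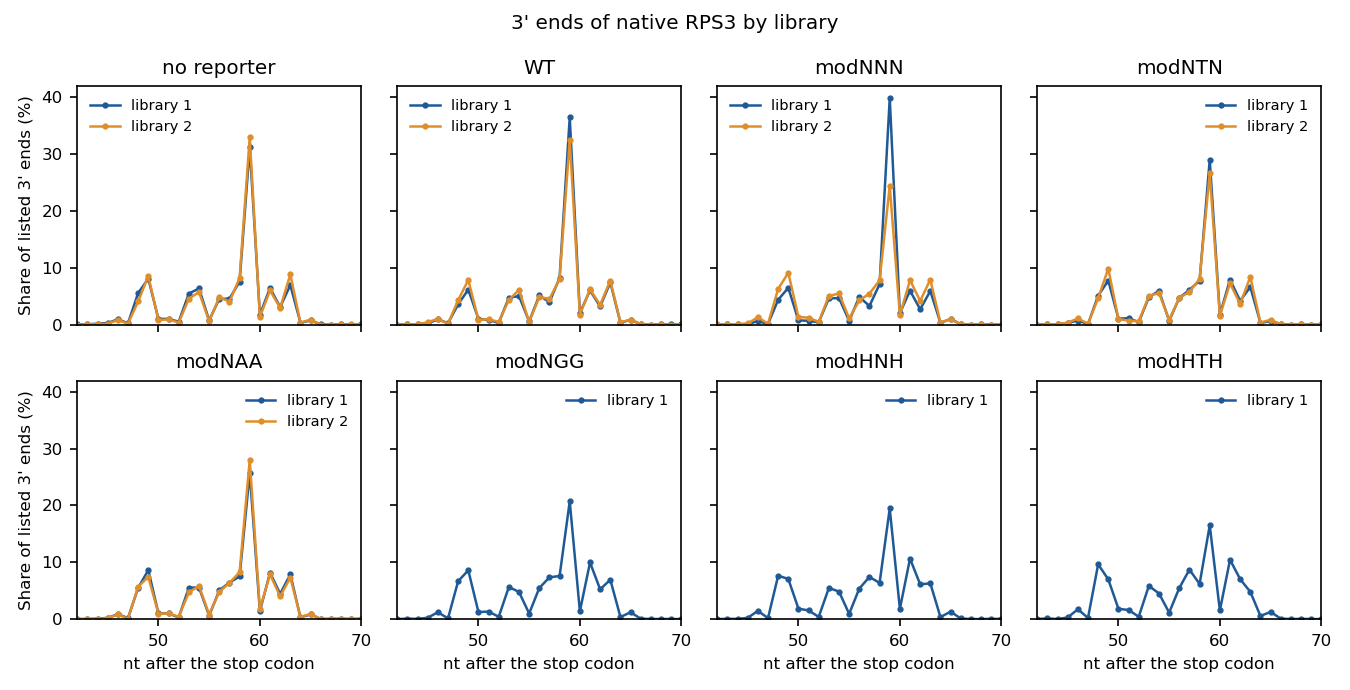
Share of the listed 3′ ends of native RPS3 (%, vertical axis) at each position from 42 to 70 nt after the stop codon, 1 panel per strain group and 1 line per library. The peak at 59 nt leads in all 13 libraries, ranging from 16.5% in modHTH to 39.9% in the first modNNN library, and the smaller sites of the cluster differ in their order between libraries, as at 48 and 49 nt.

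The sites other than 59 nt did not all move alike. Position 49 ran from 6.16% in the first WT library to 9.84% in the second modNTN library, and the 3 single libraries, at 6.99% to 8.59%, lay inside the range of the others. Position 61 held 5.96% to 8.17% in the groups with 2 libraries and 9.97%, 10.6% and 10.4% in modNGG, modHNH and modHTH. Position 57 likewise held 3.27% to 6.44% in the former and 7.35%, 7.42% and 8.71% in the latter. Position 48 held 3.55% to 6.29% and then 6.68%, 7.64% and 9.64%. Position 56 held at most 5.12% and then 5.47%, 5.37% and 5.47%. At positions 61, 57, 56 and 48 the shares in the single libraries thus lay above all of the others, and at position 59 below. In modHNH and modHTH the share at 48 nt exceeded that at 49 nt, and the share at 57 nt exceeded that at 58 nt. This was the reverse of the WT and no reporter libraries. Shares add up to the same total, and per 100 counted reads only position 61 of these 4 lay above all of the others, at 6.79 to 7.11 against 5.21 to 6.73. Position 62, which is not among these 4, also lay above all of the others, both by share and per counted read.

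None of the 20 tests on the 3′ ends of RPS3 passed after Benjamini-Hochberg adjustment over the 20. Over the 8 groups, by permutation of the F ratio with 100000 resamples, the share at 61 nt had the smallest p (F = 10.9, p = 0.0113, adjusted 0.203). The share of ends past 100 nt gave F = 6.74 (permutation p = 0.0203, adjusted 0.203), and the share at 59 nt gave F = 2.19 (permutation p = 0.199, adjusted 0.57). Without the second modNNN library the F ratios at 59 and 61 nt were 19.9 and 51.3 and both passed (permutation, adjusted p = 0.0461). That call rests on the removal of 1 library that differs from its partner. Of the 8 groups 3 have no spread of their own, and the removal leaves modNNN without one too.

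Contrasts of means were tested by two-sided exact permutation over libraries. Reporter groups against no reporter differed by -4.88 percentage points at 59 nt (27.2% in 11 libraries against 32.1% in 2, exact permutation p = 0.397, adjusted 0.836). The 9 modified libraries against WT differed by -8.90 points (25.6% against 34.5%, lower in 8 of 9 libraries than the lower WT library, exact permutation p = 0.0909, adjusted 0.545). Libraries with the T insert against the other modified ones differed by -2.34 points (3 against 6 libraries, exact permutation p = 0.679, adjusted 0.882). The smallest p these designs allow is 0.0128, 0.0182 and 0.0119, which after adjustment over 20 tests needs several results near that limit to pass.

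The mean position differed by 0.13 nt between reporter and no reporter (exact permutation p = 0.718, adjusted 0.882) and by -0.30 nt between modified and WT (exact permutation p = 0.418, adjusted 0.836). The median position was 59 nt in the 10 libraries of groups with 2 and 58 nt in the 3 single ones.

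Libraries with a low share at 59 nt also listed fewer ends per counted read. For each 100 reads counted on the RPS3 row, 65.0 to 90.2 had an end listed in the 200-nt window, with a median of 81.5. The no reporter libraries had 82.0 and 86.8, and WT had 88.6 and 89.1. The modNNN libraries had 90.2 and 78.8, while modNGG, modHNH and modHTH had 69.4, 66.8 and 65.0.

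Ends at 59 nt varied most. They numbered 10.7 to 36.0 for each 100 counted reads, a 3.35-fold range over the 13 libraries. Ends at all other positions together numbered 53.8 to 61.5, a 1.14-fold range. In modNGG, modHNH and modHTH the ends at 59 nt numbered 14.4, 13.0 and 10.7 for each 100 reads and the others 55.02, 53.8 and 54.3. The other 10 libraries had 19.2 to 36.0 at 59 nt and 54.2 to 61.5 elsewhere. Single positions within that sum moved in both directions. Position 63 numbered 3.12 to 4.81 for each 100 reads in the single libraries and 5.32 to 7.66 in the others. Position 58 numbered 4.02 to 5.26 against 5.88 to 7.28, and position 54 numbered 2.93 to 3.31 against 4.20 to 5.44. At these 3 positions, as at 59 nt, the single libraries lay below all of the others. Where the reads without a listed end stopped was not tested.

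**Figure D4:**
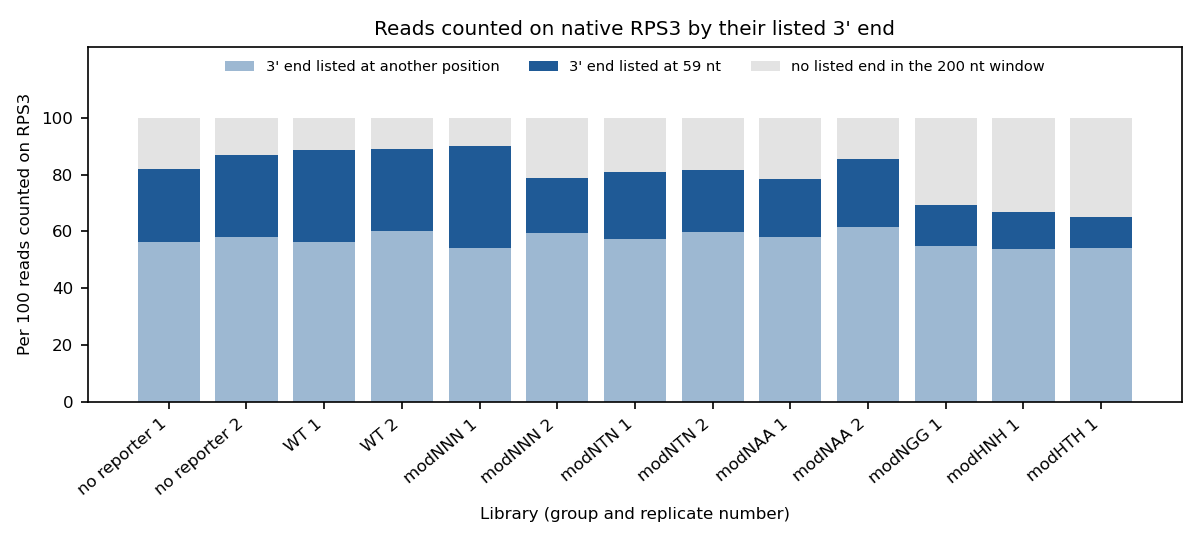
Reads counted on native RPS3 in each library, per 100, split into those with a 3′ end listed at 59 nt (dark), at another position of the 200-nt window (light blue) and with no listed end (grey). The light part runs from 53.8 to 61.5, the dark part from 10.7 in modHTH to 36.0 in the first modNNN library.

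Most of these libraries were low at the leading site of other transcripts too. For the peroxiredoxin gene TSA1, whose leading site lies at 106 nt, the 3 single libraries held 29.3% to 32.8% there and the other 10 held 34.1% to 38.5%. For the plasmid gene URA3, at 19 nt, they held 30.9% to 34.0%, against 38.2% to 46.9% in the 8 other reporter libraries. For the glycolytic gene PGK1, at 158 nt, modHNH and modHTH held 31.9% and 32.1%, against 39.6% to 46.3% in the groups with 2 libraries, and modNGG, at 41.9%, lay inside that range. The second modNNN library was the lowest of the groups with 2 for all of RPS3, TSA1, URA3 and PGK1. In modHNH and modHTH a lower share at the leading site was therefore measured on all of these genes, none with a changed terminator, and in modNGG on all but PGK1. The cause was not tested. The number of listed ends did not fall with it on every gene. For each 100 reads TSA1 had 99.6 to 100 listed ends and URA3 had 79.2 to 82.7, whereas PGK1 had 48.3 to 88.3.

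The reporter with the unmodified terminator ended at the same sites as native RPS3. At 59 nt the native gene held 36.5% and 32.5% of its ends in the WT libraries, and the reporter of the same libraries held 33.4% and 29.7%. The difference of 3.09 and 2.86 points had the same sign and nearly the same size in both libraries. Between the libraries, the native share differed by 3.95 points and the reporter's by 3.71. Both transcripts had a median position of 59 nt, and 94.5% and 94.3% of native ends lay within 48 to 63 nt, against 93.7% and 93.2% of reporter ends.

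Within the cluster the reporter used the upstream sites more. At 48 nt the native gene held 3.55% and 4.30%, and the reporter 7.01% and 7.82%. At 49 nt the native gene held 6.16% and 7.85%, and the reporter 9.64% and 10.2%. Positions 48 to 55 together held 22.1% and 25.2% of native ends and 30.1% and 31.7% of reporter ends. In both libraries the native share lay below that of the reporter, by more than either differed between libraries. At 50 and 51 nt the native share was the higher in both libraries. At 54 nt the native gene held 5.00% and 6.11%, against 5.70% and 5.82%, so the sign differed between libraries.

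Most downstream sites held more of the native ends. At 58 nt it held 8.22% and 8.003%, against 6.69% and 5.93% in the reporter. At 56 nt it held 5.12% and 4.87%, against 2.91% and 3.41%. At 63 nt it held 7.41% and 7.74%, against 7.12% and 8.62%, and at 57 nt 3.94% and 4.50%, against 4.04% and 3.69%, so at these positions the sign differed between libraries. Positions 56 to 63 together held 72.4% and 69.0% of native ends and 63.5% and 61.6% of reporter ends.

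Of the 10 leading positions, 5 (48, 49, 53, 56 and 58 nt) differed between native gene and reporter by more than either differed between libraries, with the same sign in both. At 59 and 61 nt the sign was also the same in both libraries. Position 53 held 4.73% and 4.33% in the native gene, against 5.47% and 5.54% in the reporter. The mean position was 0.87 and 0.34 nt further downstream in the native gene. No test was made, since an exact permutation test over 2 libraries cannot give a p under 0.05.

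**Figure D5:**
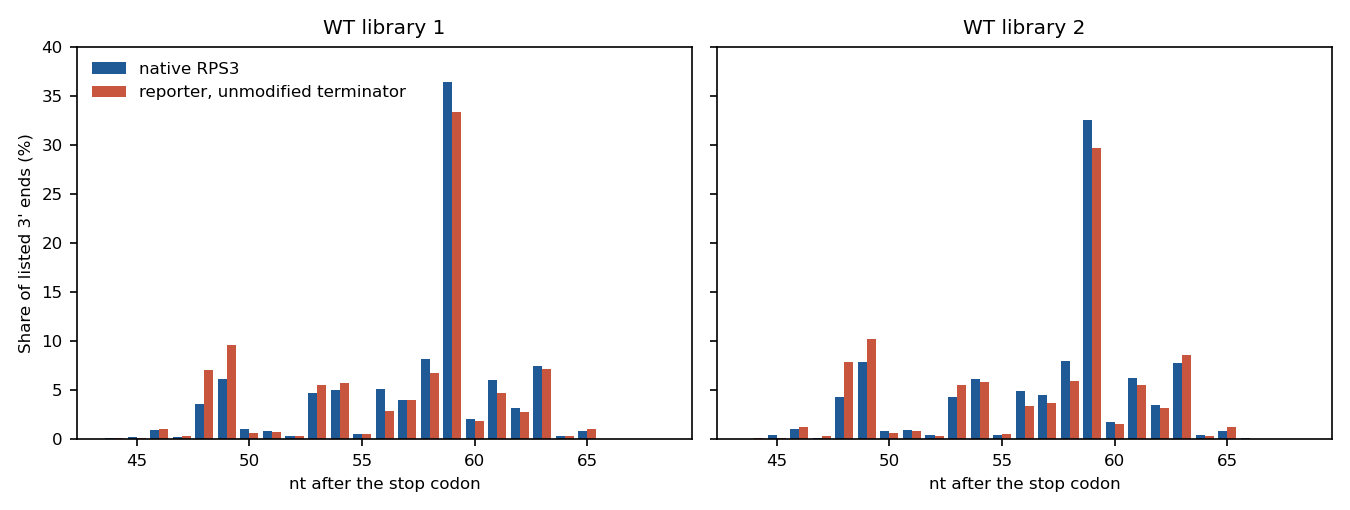
Share of listed 3′ ends (%, vertical axis) at positions 44 to 68 nt after the stop codon for native RPS3 and for the reporter with the unmodified terminator, in each WT library. Both peak at 59 nt (36.5% and 32.5% native, 33.4% and 29.7% reporter), and the reporter bars are higher at 48 and 49 nt in both panels.

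As a whole-profile measure, the absolute differences in share were summed over the 200 positions and divided by 2, which gives the percentage of ends that would have to move. Native gene and WT reporter differed by 10.3% and 10.1% in the WT libraries. The native profiles of the WT libraries differed by 6.32% from each other, and the reporter profiles by 5.94%. The native profiles of the no reporter, modNTN and modNAA pairs differed by 6.44%, 6.35% and 5.08%, and those of the modNNN pair by 17.6%. The distance from native gene to WT reporter was thus above that of all replicate pairs but modNNN. The native profiles of WT and no reporter differed by 4.02% to 8.55%, a range that includes the distances within the WT and the no reporter pair.

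The native profiles of the 3 single libraries lay 16.05% to 26.97% from the native profiles of WT, about as far as the modNNN libraries lay from each other or further. In the 9 modified libraries native gene and reporter differed by 72.5% to 87.4% by position number. The inserts lengthen the reporter's terminator, so a position number past the first insert is not the same base in both, and this distance does not compare the use of the same sites. Position 59 held 16.5% to 39.9% of native ends there and 0.658% to 2.70% of reporter ends. Position 48 held 4.35% to 9.64% of native ends and 0.0169% to 0.165% of reporter ends. Position 57, at 3.27% to 8.71% of native ends and 4.23% to 11.3% of reporter ends, held ends of both transcripts. Native RPS3 and the WT reporter share the terminator sequence. In the sources used here, nothing says how reads inside it were assigned to either.

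The 5′P ends of RPS3 numbered 1716 to 4559 in the listed window of -299 to 49 nt from the stop codon. Of these, 0.132% to 0.490% (3 to 19 ends) lay past the stop codon. Ends more than 20 nt before the stop codon fell at 39.95% to 43.1% in the most used of the 3 reading-frame positions, and at 34.1% to 36.1% and 21.8% to 25.2% in the others. In each library 3 to 14 positions shared the same highest count of 37 to 58 ends, and single 5′P positions were not compared between groups.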

How the data were processed

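Per the labels' protocols, HT-5PSeq was done with oligo(dT) priming only. The authors deposited whole-number read counts for each annotated transcript and, for each listed position around the stop codon, counts of 3′ and 5′P ends, none of them normalized. The build sacCer3 (R64) and the tools cutadapt, HISAT2, SAMtools, featureCounts and bedtools, with FastQC and MultiQC for quality, come from the submitters' processing notes; versions, settings, use of strand and treatment of duplicate reads were not given in the sources used here. Positions are the authors' deposited numbers, taken as given.

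Libraries with at least 1000 reads were used. Gene counts, without the plasmid rows, were fitted with edgeR 4.0.16 in R 4.3.3 (TMM, filterByExpr, quasi-likelihood test, group as the only term), with DESeq2 1.42.0 as an alternative. End counts were turned into shares of each library's listed ends with numpy 2.4.6 and scipy 1.17.1 (Python 3.11.15), with Wilson intervals at 95%. The share at each named site, the mean position and the share past 100 nt were tested over libraries by permutation. Named positions are the 10 with the highest mean share; named genes are RPS3, the reporter, the other transcripts of the position tables, the single-copy and partner lists and the 5 genes most correlated with RPS3. Not every gene of these lists is reported by name here. The partner gene called by DESeq2 alone was singled out after its value was seen. RPS3, these lists and the tests were chosen with earlier results of these data known. Alternatives covered scaling, filter, tool, libraries, replicate number, window and site definition. The scripts were tested on simulated data. No genome sequence was used here, so no terminator sequence is shown.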

Additional observations from a re-analysis of the deposited data

How the results depend on the processing

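Native RPS3 passed the threshold in none of the 53 alternatives for the read level or the 101 fits without 1 library. The lowest adjusted p, 0.15, came when listed 3′ ends replaced the row count, which gave -0.33, -0.56 and -0.62 for modNGG, modHNH and modHTH against modNNN. The sign turned to 0.028 with library totals and to 0.0040 with only groups of 2 libraries for reporter against no reporter, and to 0.0015 with only groups of 2 for modNNN against WT. Without 1 library, log2 fold changes ran from -0.14 to 0.080 (reporter against no reporter), -0.033 to 0.20 (WT against no reporter), -0.077 to 0.068 (modNNN against WT) and -0.12 to 0.0087 (modNGG against modNNN).

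Of 123 alternatives for the site tests none passed and 14 turned sign. With all columns of at least 1 end, reporter against no reporter gave -0.36 nt for the mean position, 0.86 points at 49 nt and -0.17 points past 100 nt; modified against WT gave -0.26 points past 100 nt; and T against no T gave 0.77 nt and -1.88 points at 49 nt. With positions within 10 nt merged, reporter against no reporter gave 1.05 points at 49 nt and T against no T gave 0.079 nt. Positions 1 to 150 nt gave -0.033 nt (reporter against no reporter) and -0.020 points past 100 nt (T against no T), and median positions gave -0.27 nt (reporter against no reporter). Per counted read, an alternative chosen after seeing the data, modified against WT gave -0.040 at 49 nt and -0.13 past 100 nt, and T against no T gave -0.087 at 61 nt.

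Without 1 library, F over the 8 groups ran from 1.54 to 19.9 at 59 nt and 7.89 to 51.3 at 61 nt, both passing only without the second modNNN library. Reporter against no reporter ran from -0.16 to 0.42 nt and from -0.016 to 0.28 points past 100 nt, and modified against WT from -0.011 to 0.22 points past 100 nt. T against no T ran from -0.15 to 0.18 nt, -4.82 to 1.43 points at 59 nt, -0.51 to 0.92 at 49 nt, -0.83 to 0.77 at 61 nt and -0.0039 to 0.22 past 100 nt. Native gene minus WT reporter, merged within 10 nt, was 4.14 points at the leading site, -3.79 at the second and -0.049 at the third; past 100 nt it was 0.0083 and -0.33 points with either library alone. The cause of these shifts was not tested. The F test on median positions had no spread within groups and gave no value, and contrasts with modNGG, modHNH or modHTH have none when only groups of 2 are kept.

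Equal replicate numbers gave no consistent pairing of the libraries. Differences within a group correlated between groups with either sign (r from -0.31 to 0.32 over 10 pairs of groups), and what such groups shared was not tested. With the replicate number as a block, RPS3 gave -0.03 for reporter against no reporter and -0.24 for modHTH against modNNN, and the lowest adjusted p of the site tests was 0.0678; no call changed. Depth was not varied; counting intervals are the only measure of it here.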
